A study of Homo sapiens with 2 samples.

Results

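Caveolar coat genes and the genes of the EHD and PACSIN families were compared between 1 tumour refractory to trastuzumab emtansine (T-DM1) and 1 untreated tumour. The 9 genes CAV1, CAV2, PTRF, EHD1, EHD2, EHD3, EHD4, PACSIN2 and PACSIN3 were taken by symbol from a table of 29972 human genes, and all 9 were found there. PTRF is the older symbol of CAVIN1. Both tumours came from NCI-N87, an established human gastric carcinoma line with amplified ERBB2 (HER2), implanted under the skin of nude mice, which lack mature T cells. The T-DM1-refractory tumour came from a host given the conjugate every 3 weeks over 18 weeks, and the other tumour had no treatment; the dose is not given in the labels. T-DM1 is trastuzumab, an antibody to HER2, coupled to the microtubule poison DM1. With 1 tumour and 1 library per group there is no replicate check, no test across samples and no p-value below other than the authors' own. All intervals are exact 95% intervals that cover counting error only.

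Caveolae are small flask-shaped pits of the plasma membrane. Caveolins, which insert into the membrane as a hairpin, and cavins, which cover them from the cytosol, form the coat. EHD proteins are membrane-bending ATPases: EHD2 sits at the neck of caveolae and holds them at the cell surface, while EHD1, EHD3 and EHD4 act mainly on recycling and early endosomes. PACSIN2 and PACSIN3 are F-BAR proteins that curve membranes, and PACSIN2 is known to shape caveolae. Uptake through caveolae has been studied as a route of T-DM1 into NCI-N87 cells.

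The EHD2 transcript stood 274-fold higher in the refractory tumour, at 32.2 CPM (the count relative to the size of the library) against 0.118 CPM in the untreated tumour. The caveolin gene CAV1 and the cavin gene PTRF were 3.38-fold and 2.27-fold lower in the refractory tumour, and CAV2, which lies next to CAV1, was not. EHD1, EHD4 and PACSIN2 were moderately higher and PACSIN3 moderately lower, none of them by as much as 2-fold. EHD3 was scarce in both tumours.

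The start regions of 4 of these genes are shown because they set a gene that differed strongly beside a family member or neighbour that did not: EHD2 beside EHD4, and CAV1 beside CAV2. RefSeq promoter windows on GRCh38.p14, from 250 bases before to 50 bases after the annotated start, were found for 7 of the 9 genes, and the one farthest upstream was used where a gene had several. Capitals mark matches on either strand to 7 motifs searched: GGGCGG (the SP1 box), ACGTG (a core of the hypoxia response element), GCGTG (another form of that core), CATTCC (TEAD factors), TGACTCA (AP-1), CACCTG (an E-box) and TATAAA (the TATA box).
EHD2, chr19:47713172-47713471, plus strand: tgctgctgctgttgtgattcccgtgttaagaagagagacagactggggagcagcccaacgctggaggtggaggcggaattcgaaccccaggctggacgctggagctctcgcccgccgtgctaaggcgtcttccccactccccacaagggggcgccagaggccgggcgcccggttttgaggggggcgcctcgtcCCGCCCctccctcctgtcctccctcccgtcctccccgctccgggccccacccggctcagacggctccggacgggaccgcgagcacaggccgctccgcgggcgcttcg
EHD4, chr15:41972508-41972807, minus strand: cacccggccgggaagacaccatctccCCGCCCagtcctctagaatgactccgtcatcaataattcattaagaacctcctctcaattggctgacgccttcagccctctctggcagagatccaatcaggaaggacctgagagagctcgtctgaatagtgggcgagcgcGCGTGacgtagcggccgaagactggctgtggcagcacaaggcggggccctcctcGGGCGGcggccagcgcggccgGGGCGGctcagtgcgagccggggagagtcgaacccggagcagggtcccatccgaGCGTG
CAV1, chr7:116524759-116525058, plus strand: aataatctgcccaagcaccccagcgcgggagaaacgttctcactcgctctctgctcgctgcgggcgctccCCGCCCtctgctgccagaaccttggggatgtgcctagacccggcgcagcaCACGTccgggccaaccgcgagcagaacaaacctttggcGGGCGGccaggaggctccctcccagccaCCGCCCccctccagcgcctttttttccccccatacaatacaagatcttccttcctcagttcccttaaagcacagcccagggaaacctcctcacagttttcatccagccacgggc
CAV2, chr7:116499488-116499787, plus strand: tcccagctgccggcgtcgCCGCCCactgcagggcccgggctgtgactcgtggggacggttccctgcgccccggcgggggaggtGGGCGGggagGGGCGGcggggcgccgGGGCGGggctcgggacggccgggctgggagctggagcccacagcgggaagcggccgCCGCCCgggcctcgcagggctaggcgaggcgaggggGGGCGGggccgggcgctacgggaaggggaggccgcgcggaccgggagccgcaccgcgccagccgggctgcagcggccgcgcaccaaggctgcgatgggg
None of the 4 windows holds the TEAD, AP-1, E-box or TATA letters. Of all RefSeq windows 14.0%, 4.95%, 20.6% and 11.5% hold them, in that order. The SP1 box has 1 match in EHD2, 3 in EHD4, 3 in CAV1 and 6 in CAV2, and 44.95% of the 35116 RefSeq windows hold at least 1. The first hypoxia core has 1 match in CAV1, and 21.4% of windows hold it. The other form has 2 matches in EHD4, and 36.5% of windows hold it. The windows are rich in CG pairs, with 30 in EHD2, 27 in EHD4, 19 in CAV1 and 43 in CAV2, against a median of 14. These matches describe letters only.

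The refractory library held 59902712 expected counts, reads assigned to genes by estimation and rounded here, and the untreated library 75722114. Levels are given as CPM after TMM scaling. A gene was described if it had at least 1 CPM in the higher library, and called at a 2-fold difference after adding 1 CPM to both values. Of 14167 described genes, 2943 were called, 1388 higher and 1555 lower, which is 20.8% in either direction, 9.8% higher and 11.0% lower, with a median log2 difference of 0.03. Markers of the tumour cells (EPCAM, CDH1, KRT8, KRT18, KRT19 and ERBB2) summed to 13966 CPM in the refractory and 14404 CPM in the untreated library, and none of these 6 was called. ERBB2, the largest part of each sum, stood at 7975 CPM in the refractory and 7267 CPM in the untreated tumour. The near-equal sums hold differences in opposite directions. EPCAM was higher, at 785.2 CPM in the refractory and 471.4 CPM in the untreated tumour, and so was CDH1, at 817.2 CPM and 588.6 CPM. KRT8 was lower, at 1826.7 CPM in the refractory and 3203.9 CPM in the untreated tumour, and so was KRT18, at 922.0 CPM and 1214.9 CPM.

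Of the 9 genes 8 were described, EHD2 only through its level in the refractory library, and EHD3 was not. Among the 8, 1 was called higher and 2 were called lower, against 20.8% of all described genes called in either direction. With numbers this small, the share of called members is not read as differing from that of all genes. The median log2 difference of the 8 was 0.42, beside 0.03 over all described genes. For 9 of the 9 genes both deposited counts were whole numbers. Counts are fractional where an estimate divides reads between similar genes. Of all values, 93.2% in the refractory and 92.8% in the untreated column were exactly whole. All values include those of genes without reads: 11704 in the refractory and 10589 in the untreated column were 0 after rounding.

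**Figure D1:**
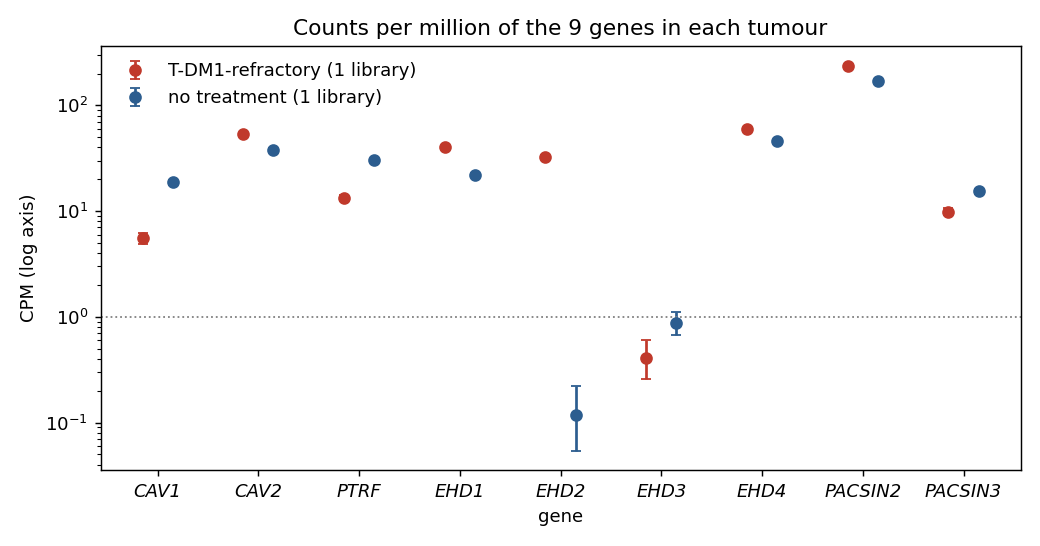
CPM on a log axis for each of the 9 genes in the T-DM1-refractory (red) and the untreated (blue) library; bars are exact 95% Poisson intervals of the counts, and the dotted line is the minimum of 1 CPM. EHD2 is the 1 gene whose values lie on both sides of that line, at 32.2 CPM in the refractory and 0.118 CPM in the untreated library.

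**Figure D2:**
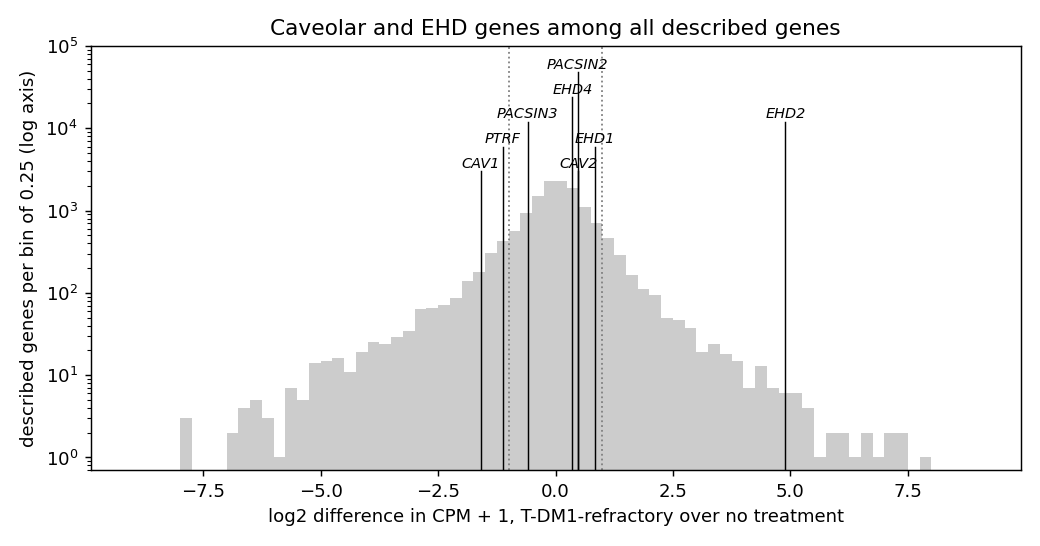
Number of described genes (log axis) by log2 difference in CPM + 1, refractory over untreated, with the 8 described caveolar, EHD and PACSIN genes as labelled lines and 2-fold as dotted lines. EHD2 stands in the right tail at 4.89, CAV1 at -1.59 and PTRF at -1.12 lie past the left line, and the other 5 lie between the lines.

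Among the caveolins, CAV1, the principal scaffold of caveolae outside muscle (chromosome 7, plus strand, coding part 116525063 to 116559287 on GRCh38), had 327 counts in the refractory library and 1425 counts in the untreated library. These were 5.51 CPM (95% interval 4.93 to 6.14) in the refractory and 18.6 CPM (17.7 to 19.6) in the untreated tumour. CAV1 was therefore 3.38-fold lower in the refractory tumour (95% interval 2.997 to 3.83), with a log2 difference of -1.59 that ranked 751 from the lowest of the 14167 described genes. CAV2, the partner that assembles with CAV1 in most caveolae (chromosome 7, plus strand, coding part 116499821 to 116506121), had 3165 counts in the refractory and 2896 counts in the untreated library. Its level was 53.3 CPM in the refractory and 37.9 CPM in the untreated tumour, a ratio of 1.41 (95% interval 1.34 to 1.48). The caveolin genes, 16.2 kb apart on the same strand by GENCODE 29, thus differed in opposite directions, CAV1 past 2-fold and CAV2 not.

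Per transcript length, which allows levels of different genes to be compared, the deposited FPKM (fragments relative to transcript length and sequencing depth) of CAV1 was 2.48 in the refractory and 8.28 in the untreated tumour. CAV2 stood at 19.0 FPKM in the refractory and 13.7 FPKM in the untreated tumour. The CAV1 level was 0.130 of the CAV2 level in the refractory tumour (95% interval 0.116 to 0.146) and 0.605 of it in the untreated tumour (0.568 to 0.645). These intervals do not overlap, so the change in proportion between the caveolin transcripts of these 2 libraries was larger than counting error.

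PTRF, the cavin that is required to build the caveolar coat (chromosome 17, minus strand, coding part 42404687 to 42423097), had 788 counts in the refractory and 2304 counts in the untreated library. Its level was 13.3 CPM (95% interval 12.4 to 14.2) in the refractory and 30.1 CPM (28.9 to 31.4) in the untreated tumour. PTRF was 2.27-fold lower in the refractory tumour (95% interval 2.09 to 2.46), and its log2 difference of -1.12 was close to the 2-fold limit. With 5 CPM added in place of 1 CPM it was -0.94, and PTRF was then not called. CAV1, CAV2 and PTRF together held 25.4 FPKM in the refractory and 31.1 FPKM in the untreated tumour, of which CAV2 made up 74.7% in the refractory and 44.1% in the untreated tumour.

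EHD2 (chromosome 19, plus strand, coding part 47716613 to 47741432) had 1911 counts in the refractory and 9 counts in the untreated library. Its level was 32.2 CPM (95% interval 30.8 to 33.7) in the refractory and 0.118 CPM (0.0538 to 0.223) in the untreated tumour. The ratio was 274, and the 9 counts beneath it give a wide 95% interval of 144 to 599. With 1 CPM added the log2 difference was 4.89, the rank 30 from the highest among 14167 described genes. This value depends on what is added, from 2.86 with 5 CPM to 7.21 with 0.1 CPM, and EHD2 passed 4-fold under each.

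The other EHD genes showed no difference of that size. EHD1, which drives recycling of receptors to the surface (chromosome 11, minus strand, coding part 64854333 to 64878464), stood at 39.9 CPM in the refractory and 21.9 CPM in the untreated tumour, a ratio of 1.83 (95% interval 1.71 to 1.94). EHD4, an early endosomal member (chromosome 15, minus strand, coding part 41900645 to 41972494), had 3513 counts in the refractory and 3507 counts in the untreated library. That was 59.2 CPM in the refractory and 45.9 CPM in the untreated tumour, a ratio of 1.29 (95% interval 1.23 to 1.35). EHD3, the closest paralog of EHD1 (chromosome 2, plus strand, coding part 31234622 to 31266704), had 24 counts in the refractory and 67 counts in the untreated library. At 0.405 CPM in the refractory and 0.876 CPM in the untreated tumour it was under 1 CPM in both and was not called.

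By level per length, the make-up of the EHD family differed. EHD2 stood at 9.69 FPKM in the refractory and 0.0360 FPKM in the untreated tumour. EHD4 stood at 22.5 FPKM in the refractory and 17.7 FPKM in the untreated tumour, and EHD1 at 12.7 FPKM in the refractory and 7.07 FPKM in the untreated tumour. EHD2 accounted for 21.5% of the summed EHD level in the refractory and 0.143% in the untreated tumour, while EHD1 accounted for 28.2% of it in each. The share of EHD4 was 50.01% in the refractory and 70.7% in the untreated tumour. The EHD2 level was 0.762 of the EHD1 level in the refractory tumour (95% interval 0.717 to 0.809) and 0.00509 of it in the untreated tumour (0.00232 to 0.00968). In the sum, the 4 genes held 45.0 FPKM in the refractory and 25.1 FPKM in the untreated tumour.

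**Figure D3:**
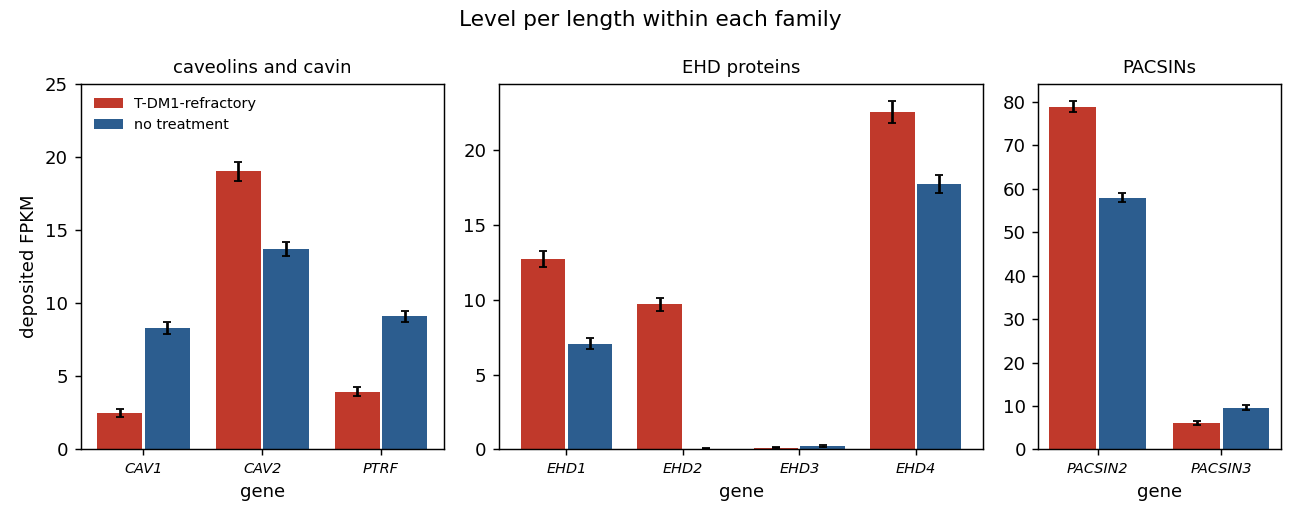
Deposited FPKM of the caveolin and cavin genes, the EHD genes and the PACSIN genes in the T-DM1-refractory (red) and the untreated (blue) library; bars start at 0, each panel has its own scale, and error bars are 95% counting intervals. CAV1 and PTRF are shorter in red, CAV2 is taller, and EHD2 has a bar of 9.69 FPKM in red and 0.0360 FPKM in blue.

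PACSIN2, the F-BAR protein of caveolae and endosomes (chromosome 22, minus strand, coding part 42871357 to 42912080), had the highest level per length of the 9 genes in both tumours, 78.9 FPKM in the refractory and 57.9 FPKM in the untreated tumour. It had 13981 counts in the refractory and 12994 counts in the untreated library, or 235.7 CPM in the refractory and 169.95 CPM in the untreated tumour. The ratio was 1.39 (95% interval 1.35 to 1.42). PACSIN3, best known from muscle (chromosome 11, minus strand, coding part 47177931 to 47182727), had 586 counts in the refractory and 1175 counts in the untreated library. Its level was 9.88 CPM in the refractory and 15.4 CPM in the untreated tumour, 1.56-fold lower in the refractory tumour (95% interval 1.41 to 1.72). Per length, PACSIN2 was 12.97 times PACSIN3 in the refractory (95% interval 11.9 to 14.1) and 6.05 times PACSIN3 in the untreated tumour (5.70 to 6.43).

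In order of FPKM, the refractory tumour ran PACSIN2, EHD4, CAV2, EHD1, EHD2, PACSIN3, PTRF, CAV1 and EHD3, with no overlap between the counting intervals of neighbours. The untreated tumour ran PACSIN2, EHD4, CAV2, PACSIN3, PTRF, CAV1, EHD1, EHD3 and EHD2. There the intervals of PACSIN3 (9.03 to 10.1 FPKM) and PTRF (8.72 to 9.47 FPKM) overlapped, and so did those of PTRF and CAV1 (7.86 to 8.73 FPKM). EHD2 was thus rank 5 of 9 in the refractory and rank 9 in the untreated tumour, and CAV1 rank 8 in the refractory and rank 6 in the untreated tumour. The first 3 genes were the same in both.

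In the authors' deposited table, the log2 fold change of EHD2 was 8.07 with a p-value of 7.07e-08, the 1 member of the 9 with a p-value under 0.05; 2157 of all 29972 genes were under 0.05 there. The authors' deposited table gave CAV1 a log2 fold change of -1.76 with a p-value of 0.114 and PTRF one of -1.18 with a p-value of 0.280. Those p-values set 1 library against 1 and compare these libraries, not the conditions.

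The remaining members of the same families are the muscle caveolin CAV3, the cavins SDPR, PRKCDBP and MURC (now CAVIN2, CAVIN3 and CAVIN4), and the neuronal PACSIN1. CAV3 had 0 counts in both libraries, and SDPR, with 5 counts in the refractory and 44 counts in the untreated library, was under 1 CPM. PRKCDBP, which links caveolae to signalling proteins, stood at 0.657 CPM in the refractory and 3.27 CPM in the untreated tumour, 4.97-fold lower (95% interval 3.54 to 7.16). PACSIN1 stood at 0.354 CPM in the refractory and 2.49 CPM in the untreated tumour, 7.02-fold lower (95% interval 4.46 to 11.6). MURC stood at 1.26 CPM in the refractory and 2.03 CPM in the untreated tumour and was not called. Of the 3 described genes of this list 0 were higher and 2 were lower, beside 11.0% of all described genes lower. PRKCDBP and PACSIN1 passed the minimum of 1 CPM only through the untreated library, where they were the higher, so this count carries no weight. PTRF, SDPR, PRKCDBP and MURC, the 4 cavin genes, each had the lower CPM in the refractory tumour. Over all described genes the median log2 difference was 0.03, and the share with the lower CPM there was not counted. Since SDPR, PRKCDBP and MURC were scarce in both libraries, these directions are not read as a result about the cavin family.

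A list of 15 proteins of caveolar scission, tethering and lipid rafts had 14 described genes, of which 5 were higher and 0 lower, beside 9.8% higher and 11.0% lower among all described genes. This split was not tested, and the list was chosen with earlier results known. With 0.1 CPM added in place of 1, 1 of the 14 was lower, where 1916 of all 14167 described genes were. DNM3, named after its values were seen, stood at 1.28 CPM in the refractory and 2.96 CPM in the untreated tumour. That is 2.31-fold lower before 1 CPM is added (95% interval 1.77 to 3.03). The median log2 of this list was 0.27, and it was 0.54 on the FPKM scale and 0.58 with a minimum of 10 CPM, each over 12 genes. The flotillins, raft scaffolds that can form domains apart from caveolae, were both higher: FLOT1 stood at 85.8 CPM in the refractory and 30.7 CPM in the untreated tumour, a ratio of 2.79 (95% interval 2.66 to 2.93). FLOT2 stood at 73.0 CPM in the refractory and 25.4 CPM in the untreated tumour, a ratio of 2.87 (95% interval 2.72 to 3.03). SRC, the kinase that phosphorylates CAV1, stood at 118.9 CPM in the refractory and 53.6 CPM in the untreated tumour. The lipoprotein receptor SCARB1 stood at 59.8 CPM in the refractory and 26.8 CPM in the untreated tumour, and NOSTRIN, an adaptor of nitric oxide synthase, at 30.8 CPM in the refractory and 11.9 CPM in the untreated tumour. The filamin FLNA, which ties caveolae to actin and had the most counts of the list, stood at 632.8 CPM in the refractory and 359.8 CPM in the untreated tumour. The dynamin DNM2, which cuts vesicles from the membrane, stood at 99.2 CPM in the refractory and 96.2 CPM in the untreated tumour, a ratio of 1.03 (95% interval 0.996 to 1.07).

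None of 22 EHD and endocytic recycling partners was called, beside 20.8% of all described genes, and their median log2 was -0.03. A lower call of 1 of the 22 appeared under each of 3 other library scalings, after 0.1 CPM was added in place of 1, and after trends with GC content and length were subtracted. The nearest to the limit was RAB11FIP5, a RAB11 effector chosen after its values were seen, at 29.5 CPM in the refractory and 59.8 CPM in the untreated tumour, which is 2.03-fold lower before 1 CPM is added. The transferrin receptor TFRC, the cargo by which EHD1 recycling is usually followed and the gene of the list with the most counts in the refractory library, stood at 644.9 CPM in the refractory and 361.4 CPM in the untreated tumour, a ratio of 1.78 (95% interval 1.76 to 1.81). Among 18 PACSIN partners and other BAR-domain genes 2 were higher and 2 lower, with a median log2 of 0.14. BIN1, an N-BAR amphiphysin, stood at 27.5 CPM in the refractory and 1.69 CPM in the untreated tumour, a ratio of 16.3 (95% interval 13.6 to 19.7). ARHGAP26, the GRAF1 protein of clathrin-independent carriers, stood at 119.2 CPM in the refractory and 48.6 CPM in the untreated tumour. GAS7 was lower, at 10.9 CPM in the refractory and 42.3 CPM in the untreated tumour, and so was FCHO1, an early clathrin-pit protein, at 0.607 CPM in the refractory and 2.68 CPM in the untreated tumour, described only through its level in the untreated library. SH3GLB1, the gene of this list with the most counts in the untreated library, stood at 215.6 CPM in the refractory and 419.2 CPM in the untreated tumour and was not called. Over the 4 lists, 11 of 57 described genes (19.3%) were called, 7 higher and 4 lower, close to the 20.8% of all described genes.

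**Figure D4:**
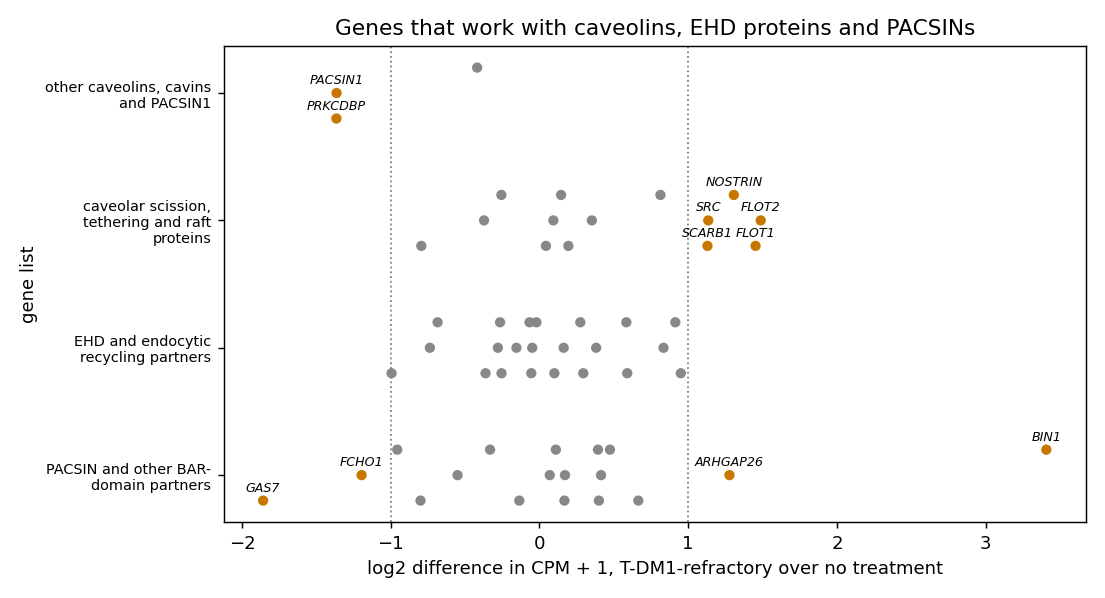
Log2 difference in CPM + 1, refractory over untreated, for the 57 described genes of 4 lists of family members and partners; 1 point is 1 gene, orange points with names are past 2-fold (dotted lines), and vertical offsets in a list only separate points. The list of recycling partners has no point past 2-fold, and BIN1 lies farthest to the right.

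Caveolae abound in endothelium, fat, smooth muscle and fibroblasts, and a xenograft holds host cells of these kinds, although the table lists human genes and how the mouse genome build was used is not stated. In bulk RNA, fewer cells of a type and less RNA per cell cannot be told apart. The 10 endothelial markers summed to 0.691 CPM in the refractory and 5.95 CPM in the untreated library, with CDH5 and TIE1 at 0 counts in both. Only 2 of the 10 were described, both through the untreated library. ROBO4 stood at 0.0674 CPM in the refractory and 2.29 CPM in the untreated library, and VWF at 0.202 CPM and 1.39 CPM. PLVAP is also in the list of scission, tethering and raft proteins. The 8 fibroblast markers summed to 2.17 CPM in the refractory and 3.13 CPM in the untreated library, with COL1A2, COL3A1 and DCN at 0 counts in both. Of 6 adipocyte markers, ADIPOQ, FABP4 and LPL were at 0 counts in both, while CIDEC had 249 counts in the refractory and 1 count in the untreated library. Skeletal muscle markers summed to 0.0674 CPM in the refractory and 0.157 CPM in the untreated library, with MYH1, MYH2 and MYLPF at 0 counts in both.

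The 8 smooth muscle and pericyte markers summed to 99.8 CPM in the refractory and 18.1 CPM in the untreated library. TAGLN carried most of this, at 90.4 CPM in the refractory and 4.79 CPM in the untreated library. RGS5, the most abundant marker in the untreated library, went the other way. It stood at 5.39 CPM in the refractory and 8.72 CPM in the untreated library. DES stood at 0.253 CPM in the refractory and 2.46 CPM in the untreated library, and MYOCD had 0 counts in both. ACTA2, with 53 counts in the refractory and 13 counts in the untreated library, had the direction of TAGLN. So did CNN1, with 47 counts in the refractory and 1 count in the untreated library. Both were under 1 CPM in each library. MYH11 had the direction of RGS5, at 0.202 CPM in the refractory and 0.366 CPM in the untreated library. CSPG4 stood at 1.80 CPM in the refractory and 1.56 CPM in the untreated library. Of the 4 described genes of this list 1 was higher and 1 lower, beside 9.8% higher and 11.0% lower among all described genes. The lower one, DES, passed the minimum of 1 CPM only through the untreated library, where it was the higher, so this count carries no weight. The 6 leukocyte markers summed to 130.1 CPM in the refractory and 31.7 CPM in the untreated library, chiefly through LYZ (95.9 CPM in the refractory and 27.2 CPM in the untreated library), with CD68 and ITGAM also higher. ITGAM, at 3.32 CPM in the refractory and 0.419 CPM in the untreated library, was described only through the refractory library. The pan-leukocyte gene PTPRC had 17 counts in the refractory and 5 counts in the untreated library, and CSF1R had 3 counts and 0 counts. The part of other cell types in the differences of CAV1, PTRF and EHD2 was not tested.

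Position in the genome was compared as a feature that the choice of genes did not use. Within 5 genes on each side in the RefSeq order, none of the described neighbours of EHD2 (4 genes), CAV1 (3, CAV2 among them) or PTRF (5) was called. The neighbours of EHD2 ranged in log2 from -0.52 to 0.83, and those of PTRF from -0.12 to 0.40. CAV1 lies between CAV2 and MET, the hepatocyte growth factor receptor gene, named after its values were seen. MET stood at 307.8 CPM in the refractory and 160.03 CPM in the untreated tumour, a log2 difference of 0.94, so the genes on both sides of CAV1 had the opposite direction to CAV1. Among the 5 nearest described genes on each side by the deposited coordinates, a choice made after the data were seen, 2 of 10 were called lower beside CAV1, 1 higher and 1 lower beside EHD2, and 0 beside PTRF. Over the neighbours of all 9 genes in the RefSeq order, with the 9 genes themselves left out, 0 of 27 described genes were higher and 4 were lower, beside 9.8% higher and 11.0% lower among all described genes, and the median log2 was 0.13.

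**Figure D5:**
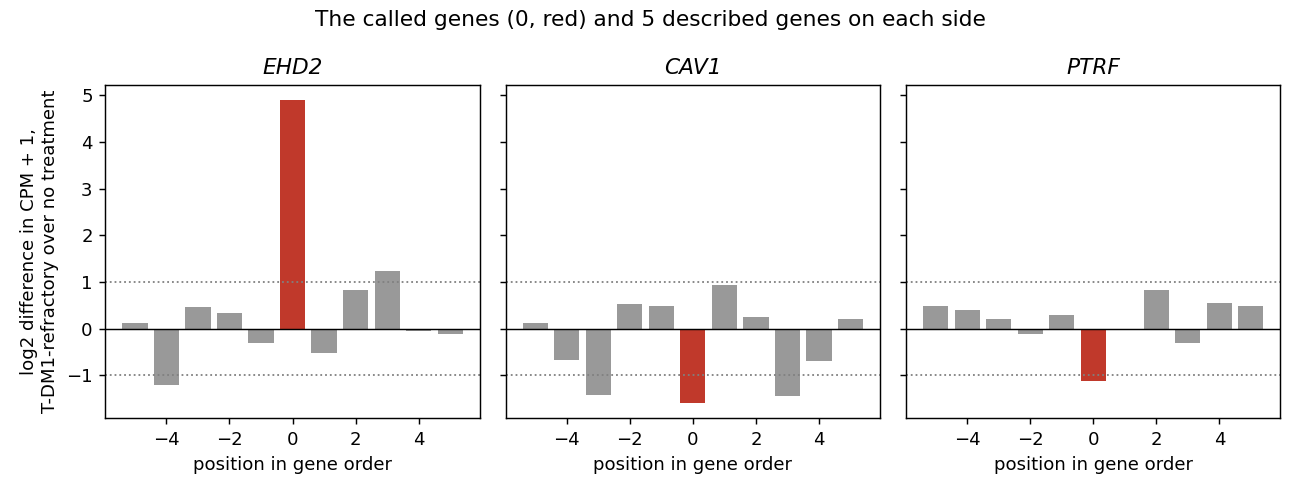
Log2 difference in CPM + 1, refractory over untreated, of EHD2, CAV1 and PTRF (red, position 0) and of the 5 nearest described genes on each side in the order of the deposited coordinates (grey); dotted lines mark 2-fold. EHD2 at 4.89 stands alone in height, its neighbours ranging from -1.21 to 1.23, CAV1 at -1.59 has neighbours from -1.44 to 0.94, and PTRF at -1.12 lies among neighbours between -0.32 and 0.83.

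The genes whose pair of levels was most like that of EHD2, by distance in log2(CPM + 1) over the 2 libraries, were ANKS4B (36.4 CPM in the refractory and 0.0654 CPM in the untreated tumour), SERPINB9 (37.9 CPM in the refractory and 0.222 CPM in the untreated tumour) and SFTA2 (26.4 CPM in the refractory and 0.183 CPM in the untreated tumour). Those most like CAV1 were PRR5L, ZNF557 and GYLTL1B, and among those most like PTRF were RHBDL2 and FUT3. A likeness over 2 libraries is a description of level and direction only, and many genes share it.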

How the data were processed

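The authors deposited, per gene, expected counts and FPKM of each library together with their own log2 fold change and p-value. The builds GRCh38 and GRCm38 and the tools edgeR 3.26.8, RSEM 1.2.28, STAR 2.7.0e and bcl2fastq 2.20 are named, per the submitters' processing notes, without their roles; for the annotation and filters, the sources used here say nothing. Per the labels' protocols, libraries followed the TruSeq mRNA protocol. The authors' log2 fold change is refractory over untreated: it lay within 0.00387 of a TMM-scaled ratio for 13007 genes above 50 counts in each library.

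Expected counts were rounded, and TMM factors (0.9904 for the refractory and 1.0097 for the untreated library) came from edgeR 4.0.16 in R 4.3.3. Ratios of CPM carry exact Clopper-Pearson intervals of 2 counts given their sum (scipy 1.17.1). A count of 0 allows up to 3 counts, 0.0506 CPM in the refractory and 0.0392 CPM in the untreated library. Coding coordinates are the deposited ones on GRCh38, counted from 1; strands come from GENCODE 29.

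The 9 genes and all lists were chosen with earlier results of these data known. Named are the 9 genes, list genes past 2-fold, the most abundant gene of each list, neighbours of called genes past 2-fold in the RefSeq order, ERBB2 and the 3 nearest genes by level of each called gene; others were named for their role, or after their values were seen where that is said. Some results under this rule are not reported here.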

Additional observations from a re-analysis of the deposited data

How the results depend on the processing

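Each of the 8 described genes kept its direction with scaling by total count, by median of ratios or by the total after the 50 most abundant genes were left out, with 0.1 or 5 CPM added, without a filter, with a minimum of 10 CPM, on the authors' FPKM and, added after the data were seen, removal of the GC and length trend (10 bins each, 10 rounds, for 94.4% of described genes). The log2 of CAV1 ranged from -1.74 to -1.17, that of PTRF from -1.20 to -0.94 and that of EHD2 from 2.86 to 7.21. With a limit of 1.5-fold, which 38.3% of all described genes passed, 2 of the 9 genes were higher, and with 4-fold, which 6.10% passed, 0 were lower. With 5 CPM added, 1 of the 9 was lower, and with the GC and length trend removed their median log2 was 0.31. The partner lists held 13 higher and 10 lower of 57 genes at 1.5-fold and 1 higher and 0 lower of 57 at 4-fold. On the FPKM scale 2 of 52 were lower, with the filter of 10 CPM 1 of 49, and with 5 CPM added 1 of 57. The share of all described genes called was also smaller under these settings than the 20.8% of the main one. It was 17.7% on the FPKM scale, 18.3% with the filter of 10 CPM and 11.7% with 5 CPM added. Neighbours called higher numbered 3 of 27 at 1.5-fold, where 2755 of all 14167 described genes were higher. They numbered 1 of 26 with the GC and length trend removed, where 1181 of 13377 were higher. Among 5 described genes on each side, a choice added after the data were seen, 1 of 80 was higher, beside 9.8% of all described genes. Neighbours called lower numbered 0 of 27 at 4-fold and 1 of 27 with 5 CPM added. Of all 14167 described genes, 504 were lower at 4-fold and 840 with 5 CPM added. Among those 5 on each side, 10 of 80 were lower, beside 11.0% of all described genes. No paired analysis was possible because each group has 1 library, and for the same reason no replicate could be left out. The 9 counts of EHD2 in the untreated library limit its ratio.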
